A study of Arabidopsis thaliana with 18 samples.

Results

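The genes described here are the 200 probe sets whose signal dropped furthest between day 1 and day 3 in wild-type Arabidopsis thaliana seedlings. They were chosen by the WT arrays themselves, out of 13391 probe sets with a single annotated gene, as those with the most negative difference between the mean log2(signal + 22) of the 3 wild-type (WT) arrays at day 3 and the mean of the 3 at day 1. Left out beforehand were 122 probe sets: scpl20, scpl35, scpl44, ICL, BETA-VPE and GSTU25, the genes whose symbols start with UGT, RPL or RPS, and 69 probe sets for genes of the plastid or mitochondrial genome. The 200 probe sets, called members below, stand for 199 genes, because AT5G62440 has 2 of them. In the annotation used 27 members have a gene symbol, while the other 173 have a locus name alone and are reported under it without a role. Among all 22746 probe sets that are not array controls, 396 dropped at least as far as the last member, of which 7 were left out as above and 189 had several genes or none in the annotation.

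Transcripts were measured in whole seedlings with Affymetrix ATH1 arrays, on which a probe set reports a transcript as 1 signal. The 6 groups, with 3 biological replicates each, were vte2 at day 3, vte1 at day 3, wild type at day 3, vte2 at day 1, vte1 at day 1 and wild type at day 1. The mutant seedlings carry the alleles vte2-1 and vte1-1 in Columbia-0, and Columbia-0 itself is the WT. All groups spent 5 days at 6 °C, and the days are counted from the move to 22 °C under a 12 h photoperiod on 0.5X Murashige and Skoog medium. Each RNA came from roughly 100 mg of seedlings pooled together, so that tissues are not separated, and fewer cells of a type cannot be told apart from less RNA per cell.

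Tocopherols, known as vitamin E, are lipid-soluble antioxidants of plastid membranes and oil bodies. The enzyme of VTE2, homogentisate phytyltransferase, commits homogentisate to tocopherols, and that of VTE1, tocopherol cyclase, closes the chromanol ring at a later step. A vte2 plant therefore makes neither tocopherols nor that pathway's intermediates, while a vte1 plant lacks tocopherols but accumulates a quinol intermediate with antioxidant activity of its own. Between germination and establishment, a seedling gives up the transcripts stored for dehydration tolerance in the dry seed, breaks down seed oil and storage protein with lipases and vacuolar proteases, and turns to photosynthesis. No probe set used here is named for VTE1 or VTE2, so the genotypes were not checked on these transcripts.

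The arrays had nearly equal trimmed means, 500.05 to 500.06, while the median over all probe sets was 164 to 181 at day 3 and 122 to 161 at day 1. Replicate 3 had the lowest log2 ratio of 3' to 5' GAPDH signal in each of the 6 groups, at -0.62 to 0.43, with the other replicates at 0.24 to 1.13. For actin this ratio was far higher, at 2.70 to 5.36 over all arrays, and was also lowest in replicate 3 of each group. The 3' end of actin thus read well above its 5' end on every array. Replicate 3 was also the lowest of its group for 165 members in vte2, 117 in vte1 and 111 in WT at day 1. With 3 arrays in a group, precision is limited by their number. A change is a difference of log2(signal + 22) and is given with its SE from the limma fit. A member is said to have risen or fallen where the limma p, adjusted by the Benjamini-Hochberg method over all 15922 probe sets tested, is under 0.05.

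**Figure D1:**
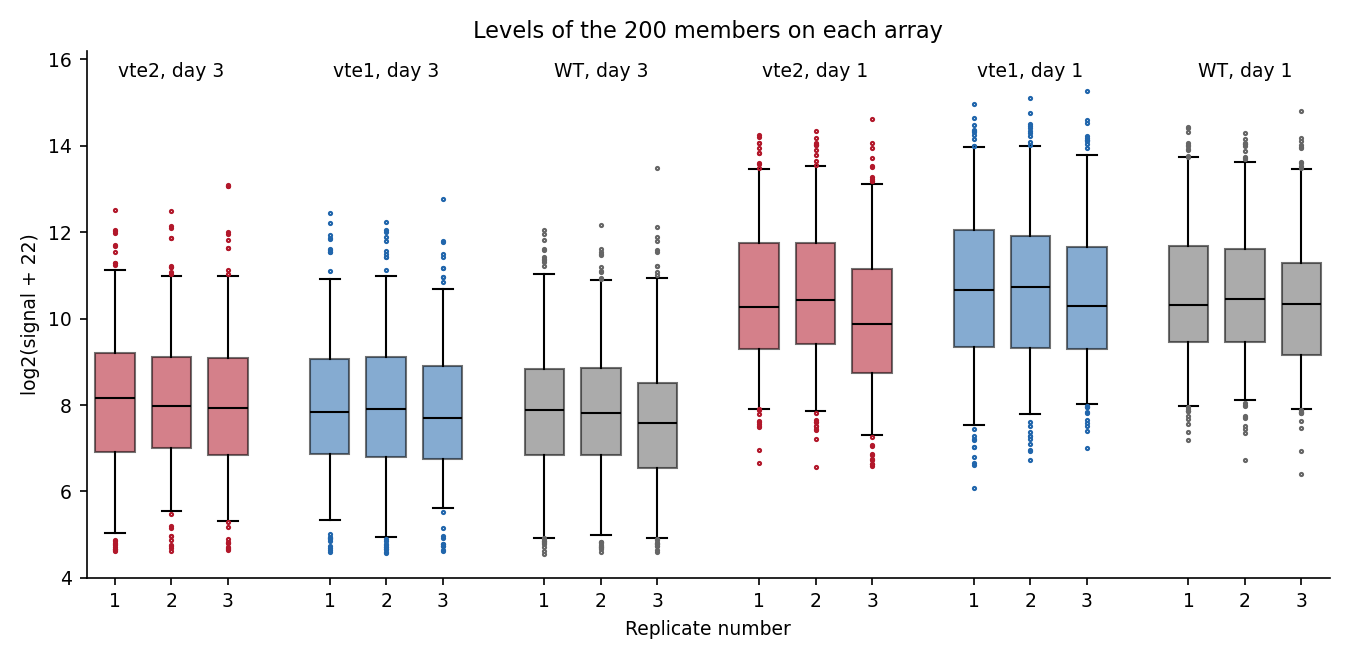
Levels of the 200 members on each of the 18 arrays, as log2(signal + 22), with vte2, vte1 and WT at day 3 on the left and at day 1 on the right. Boxes span the quartiles, the line is the median, whiskers reach the 5th and 95th percentiles and points lie beyond them. The 9 day 3 arrays have member medians of 7.57 to 8.16 and the 9 day 1 arrays 9.88 to 10.72.

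In WT the members lay between -5.11 and -2.18 on the log2 scale, with a median of -2.54, and these values chose them, so they carry no test. Over all probe sets tested the median was 0.08. Groups of arrays did not overlap between the days for 197 members, against 26.3% of all probe sets tested, a share that the choice itself raised. The median signal of the members on an array was 168 to 215 in WT at day 3 and 1253 to 1384 in WT at day 1. The 20 deepest drops began with AT4G10270 at -5.11, AT5G01870 at -4.92 and AT2G47780 at -4.84. SAG29 followed at -4.71, then AT1G29080, AT5G14450, AT2G34020, OCT1 and ATOEP16-2 at -4.44, -4.33, -4.26, -4.20 and -4.02. The remaining 11 of the 20 were AT1G48660, AT5G56260, OTP81, AT1G72070, AT1G53070, SUFE2, AT3G45310, AT5G66985, AT1G55760, AT1G06000 and AT5G22460, between -3.95 and -3.43.

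At the edge of the set AT3G48460, AT2G37400, AT1G04945, AT2G18620 and AT3G28900 were the last members, all at -2.18 in WT. Just outside it stood AT5G09270 at -2.18 and AT5G58420, AT1G73940, AT1G29250 and RSU1 at -2.17. The WT arrays did not read alike for every member. LEA18 had WT signals of 241, 259 and 10.1 in replicates 1, 2 and 3 at day 3 and 3698, 3649 and 154 at day 1, so its replicate 3 at day 1 lay below 2 of the day 3 arrays. Choosing again without 1 of the 6 WT arrays kept 159 to 181 of the 200 members.

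Nearly the whole set fell in the mutants as well. In vte2, 195 of 200 members fell from day 1 to day 3 and none rose, where 18.5% of all probe sets tested fell. In vte1, 189 fell and none rose, where 23.4% of all probe sets tested fell. These mutant arrays had no part in the choice of members. The median change was -2.16 in vte2, a 4.46-fold drop, and -2.62 in vte1, a 6.15-fold drop, against 0.06 and 0.14 over all probe sets tested. At an unadjusted limma p under 0.05, 196 members fell in vte2 and 191 in vte1, and none rose in either. The 3 arrays of day 3 lay below the 3 of day 1 for 196 members in vte2 and 189 in vte1, against 24.9% and 25.7% of all probe sets tested. In total 186 members fell in both mutants.

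Only AT4G10270 was among the 5 deepest falls of both mutants. It read 33.7, 146 and 62.7 in vte2 at day 3 and 5207, 3414 and 1023 at day 1 (-4.84 ± 0.64, adjusted p = 8.6e-06). Its vte1 signals were 18.8, 32.9 and 50.1 at day 3 and 5556, 8149 and 2799 at day 1 (-6.53 ± 0.64, adjusted p = 9.8e-08). The days did not overlap in either mutant. In vte2 it was followed by AT1G48660 at -4.40 ± 0.42, AT2G34020 at -4.04 ± 0.37, AT4G16230 at -3.95 ± 0.41 and AT5G01870 at -3.90 ± 0.39, with adjusted p of 5.1e-07 or below. In vte1 the deepest was AT2G47780, with 19.5, 62.3 and 179 at day 3 and 12201, 11677 and 7649 at day 1 (-6.86 ± 0.59, adjusted p = 2.2e-08). ATOEP16-2, LEA18 and AT5G66780 came next after AT4G10270 in vte1, at -6.12 ± 0.73, -5.73 ± 0.97 and -5.66 ± 0.86, with adjusted p of 6.1e-05 or below. Some day 3 signals of these genes are below the constant of 22 added before the logarithm, which understates their change.

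Some members did not pass the test. AT1G47400 and AT5G53770 passed in neither mutant, with changes of -1.78, adjusted p = 0.093 in vte2 and -0.29, adjusted p = 0.78 in vte1 for the first, and -0.40, adjusted p = 0.54 in vte2 and -1.16, adjusted p = 0.052 in vte1 for the other. In vte2 alone 3 more did not pass: AT5G13830 at -0.92, adjusted p = 0.17, AT2G21640 at -0.60, adjusted p = 0.35 and AT1G61640 at -0.55, adjusted p = 0.22. AT2G21640 passed without replicate 3 of all groups (-0.72, adjusted p = 0.036). AT3G27400 had the smallest change that passed among the 5 named for the smallest falls in vte2 (-0.92 ± 0.36, adjusted p = 0.049), and lost its call in 12 of 19 alternative settings. In vte1 alone 9 did not pass: AT4G33560, WAG2, AT5G49690, AT2G27420, AT4G22490, CHIL, AT3G57010, AT5G57760 and GH3.3. AT5G57760 and GH3.3 had vte1 changes above 0, at 0.14, adjusted p = 0.79 and 0.38, adjusted p = 0.53. The vte1 sign of AT5G57760 turned after quantile normalization (-0.17) and median centring (-0.25), and that of GH3.3 after median centring (-0.01). Without vte1 replicate 3 at day 1 both passed as higher in vte1 at day 3, with changes of 0.83 for AT5G57760 (adjusted p = 0.021) and 1.12 for GH3.3 (adjusted p = 0.018).

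The 27 members with a symbol are taken by role, and all 27 fell in vte2 and 24 in vte1, the 3 others being GH3.3, WAG2 and CHIL. All members with a symbol were described, a choice made after their values were seen.

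**Figure D2:**
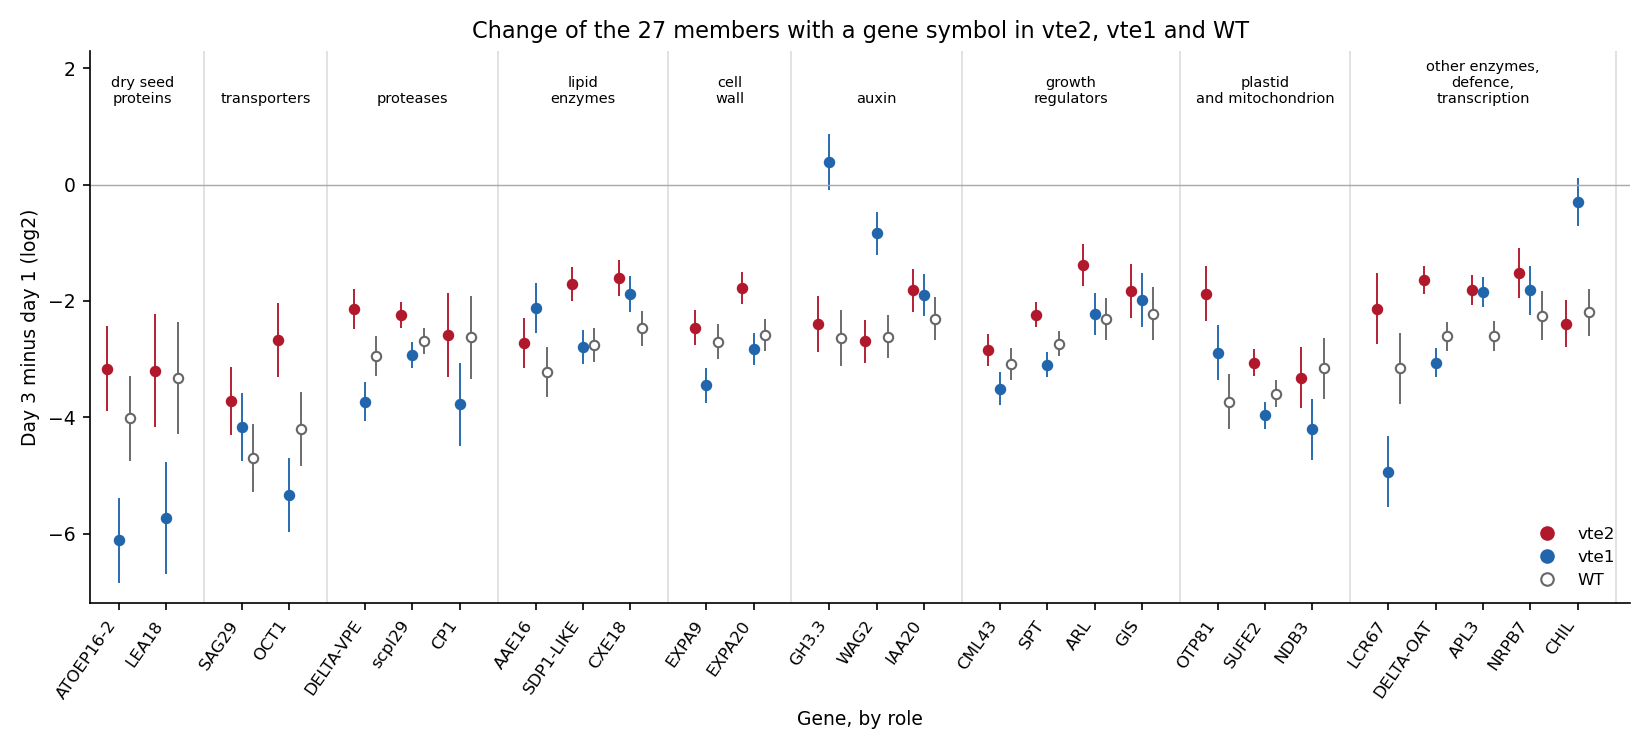
Day 3 minus day 1 as a difference of log2(signal + 22), for the 27 members with a gene symbol in 9 role groups, in vte2 (red), vte1 (blue) and WT (open grey). Bars are the SE of the limma fit over 3 arrays per group, and WT values chose the members. The dry seed proteins lie lowest in vte1, near -6, and GH3.3 is the one vte1 value above 0.

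Proteins of the dry seed were represented by LEA18, a late embryogenesis abundant protein of desiccation tolerance, and ATOEP16-2, the seed form of a plastid outer envelope protein. LEA18 read 175, 147 and 44.5 at day 3 and 1843, 1627 and 534 at day 1 in vte2 (-3.20 ± 0.97, adjusted p = 0.013). In vte1 it read 164, 96.5 and 316 at day 3 and 13768, 17393 and 4625 at day 1 (-5.73 ± 0.97, adjusted p = 6.1e-05). ATOEP16-2 read 2.7, 47.2 and 3.8 at day 3 and 472, 576 and 85.8 at day 1 in vte2 (-3.16 ± 0.73, adjusted p = 0.002). Its vte1 signals were 3.1, 6.7 and 86.4 at day 3 and 4274, 5039.9 and 1185 at day 1 (-6.12 ± 0.73, adjusted p = 1.2e-06). Both fell in both mutants, the days did not overlap, and replicate 3 was the lowest day 1 array of each for both genes. The difference between the 2 changes did not pass for either (adjusted p = 0.33 and 0.11).

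Among transporters, SAG29 (SWEET15), a sugar exporter known from seed coat, endosperm and senescing leaves, read 68.4, 29.7 and 97.9 at day 3 and 1574, 1589 and 473 at day 1 in vte2 (-3.72 ± 0.58, adjusted p = 5.6e-05). In vte1 it read 61.5, 4.4 and 93.5 at day 3 and 714, 893 and 2156 at day 1 (-4.16 ± 0.58, adjusted p = 7.9e-06). SAG29 was lower at day 3 than at day 1 on every array, and its day 1 replicate 3 was the lowest in vte2 and the highest in vte1. OCT1, a plasma membrane carrier of organic cations and carnitine, read 7.5, 3.9 and 107 at day 3 and 547, 404 and 83.2 at day 1 in vte2 (-2.67 ± 0.64, adjusted p = 0.0025). Its vte1 signals were 7.7, 11.4 and 33.2 at day 3 and 1266, 1064 and 2595 at day 1 (-5.34 ± 0.64, adjusted p = 1.2e-06). The days overlapped in vte2, where replicate 3 was higher at day 3 than at day 1, and did not in vte1.

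All 3 proteases fell in both mutants, with medians of -2.24 in vte2 and -3.73 in vte1. DELTA-VPE, a vacuolar processing enzyme of the seed coat, read 263, 280.5 and 472 at day 3 and 2099, 1527 and 1079 at day 1 in vte2 (-2.14 ± 0.34, adjusted p = 6.7e-05). Its vte1 signals were 243, 217 and 334 at day 3 and 3552, 3262 and 4478 at day 1 (-3.73 ± 0.34, adjusted p = 4.6e-08). The days did not overlap in either mutant. The serine carboxypeptidase-like gene scpl29 changed by -2.24 ± 0.22, adjusted p = 3.9e-07 in vte2 and by -2.93 ± 0.22, adjusted p = 4.4e-09 in vte1. CP1, a papain-like cysteine proteinase, read 2459.8, 1592 and 8596 at day 3 and 19321, 15383 and 25139 at day 1 in vte2 (-2.59 ± 0.72, adjusted p = 0.0072), and 1147, 788 and 6903 at day 3 and 20546, 20758 and 39675 at day 1 in vte1 (-3.78 ± 0.72, adjusted p = 0.0002). Its replicate 3 was the highest array of each of these groups.

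The 3 members grouped here as lipid enzymes also fell in both mutants. AAE16, an acyl-activating enzyme, changed by -2.72 ± 0.43, adjusted p = 5.5e-05 in vte2 and by -2.12 ± 0.43, adjusted p = 0.00037 in vte1. SDP1-LIKE, the nearest relative of the lipase SDP1 that starts seed oil breakdown, was a dim gene, with 39.8, 49.8 and 41.9 at day 3 and 251, 174 and 163 at day 1 in vte2 (-1.71 ± 0.29, adjusted p = 0.00014). In vte1 it had 18.8, 21 and 27 at day 3 and 244, 344 and 272 at day 1 (-2.79 ± 0.29, adjusted p = 2.6e-07). CXE18, a carboxylesterase, changed by -1.61 ± 0.31, adjusted p = 0.00036 in vte2 and by -1.88 ± 0.31, adjusted p = 4.1e-05 in vte1. Of the expansins, which loosen cell walls, EXPA9 fell in vte2 (-2.46 ± 0.30) and in vte1 (-3.45 ± 0.30). EXPA20 fell in vte2 (-1.79 ± 0.27) and in vte1 (-2.83 ± 0.27), and all 4 adjusted p were 4.4e-05 or below.

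Among auxin genes, GH3.3 encodes an enzyme that conjugates auxin to amino acids, WAG2 a kinase that directs auxin transport and IAA20 a member of the Aux/IAA family of auxin response regulators. In vte2 all 3 fell, with a median of -2.39. In vte1 only IAA20 fell (-1.90 ± 0.37, adjusted p = 0.00025), and the median was -0.84. GH3.3 read 164, 193 and 214 at day 3 and 1109.7, 1094 and 1059 at day 1 in vte2 (-2.39 ± 0.48, adjusted p = 0.00059). In vte1 it read 148, 225 and 693 at day 3 and 109, 134 and 642 at day 1 (0.38 ± 0.48, adjusted p = 0.53), while WT had 221, 189.9 and 166 at day 3 and 1278, 1315 and 1308 at day 1. The low values are therefore those of vte1 at day 1, above all in replicates 1 and 2, and its replicate 3 was the highest array of the group at both days. WAG2 read 50.1, 67.1 and 91.8 at day 3 and 417, 743 and 566 at day 1 in vte2 (-2.69 ± 0.37, adjusted p = 1.4e-05), and 147, 87.9 and 187 at day 3 and 174, 270.3 and 365 at day 1 in vte1 (-0.84 ± 0.37, adjusted p = 0.064). Its vte1 arrays overlapped between the days.

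The 4 members grouped here as growth regulators fell in both mutants. SPT, a bHLH factor that restrains germination, read 299, 272 and 202 at day 3 and 1282, 1672 and 983 at day 1 in vte2 (-2.24 ± 0.22, adjusted p = 2.9e-07). Its vte1 signals were 87.4, 88.2 and 121 at day 3 and 1022, 997 and 997 at day 1 (-3.10 ± 0.22, adjusted p = 1.5e-09). ARL, an ARGOS-like protein that promotes organ growth, changed by -1.38 ± 0.36, adjusted p = 0.0049 in vte2 and by -2.23 ± 0.36, adjusted p = 4e-05 in vte1. CML43, a calmodulin-like calcium sensor, changed by -2.85 ± 0.28 and -3.51 ± 0.28 in vte2 and vte1, and GIS, a zinc finger protein of trichome formation, by -1.83 ± 0.46 and -1.99 ± 0.46.

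Genes for plastid and mitochondrial proteins that the nucleus encodes included SUFE2, a sulfur donor partner in iron-sulfur cluster assembly. SUFE2 read 526, 488 and 619 at day 3 and 4471, 5971 and 3849.5 at day 1 in vte2 (-3.06 ± 0.23, adjusted p = 1.3e-08). The vte1 arrays had 146, 166 and 206 at day 3 and 2720.3, 2775 and 3609 at day 1 (-3.97 ± 0.23, adjusted p = 1e-10). The days did not overlap in either mutant. NDB3, an alternative NAD(P)H dehydrogenase of the mitochondrion, changed by -3.32 ± 0.52 in vte2 and -4.21 ± 0.52 in vte1. OTP81, which takes part in organelle transcript processing, changed by -1.88 ± 0.47 in vte2 and -2.89 ± 0.47 in vte1, and all 4 adjusted p were 0.0036 or below.

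The other named enzymes and proteins were of mixed kinds. LCR67 (PDF1.1), a plant defensin, read 502, 646 and 1184 at day 3 and 4512, 3662 and 2126 at day 1 in vte2 (-2.14 ± 0.61, adjusted p = 0.0088). The vte1 signals were 10.4, 98.1 and 319.8 at day 3 and 4449, 3429 and 2451 at day 1 (-4.94 ± 0.61, adjusted p = 1.7e-06). Its day 3 arrays were lower in vte1 than in vte2 without overlap. DELTA-OAT, the ornithine aminotransferase of arginine breakdown, changed by -1.64 ± 0.25, adjusted p = 3.3e-05 in vte2 and by -3.06 ± 0.25, adjusted p = 8e-09 in vte1. APL3, a large subunit of the starch enzyme ADP-glucose pyrophosphorylase, changed by -1.81 ± 0.26 in vte2 and -1.85 ± 0.26 in vte1. NRPB7, a subunit of RNA polymerase II, changed by -1.52 ± 0.42 in vte2 and -1.82 ± 0.42 in vte1. CHIL, a chalcone isomerase-like protein of flavonoid synthesis, read 412, 302 and 764 at day 3 and 2642, 3398 and 1725 at day 1 in vte2 (-2.39 ± 0.41, adjusted p = 0.00013). In vte1 it read 837, 989.9 and 547 at day 3 and 928, 731 and 1283 at day 1 (-0.31 ± 0.41, adjusted p = 0.55), and the days overlapped.

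At day 1 the mutants differed from each other in 19 members. Seed genes such as ATOEP16-2 and DELTA-VPE were lower in vte2 than in vte1, and genes such as GH3.3 were higher. Mean signals of vte2, WT and vte1 were 378, 876 and 3500 for ATOEP16-2. For DELTA-VPE they were 1568, 1861 and 3764, with no test against WT. The median of vte2 minus vte1 over the 200 members was -0.43, against 0.02 over all probe sets tested, and 158 members were below 0. In all, 11 members were lower in vte2 than in vte1, where 1.09% of all probe sets tested were, and 8 were higher, where 4.13% were. Same-numbered arrays were taken as paired at day 1 from their correlation, although the labels state no pairing. With the number as a block 39 members were called, 29 lower and 10 higher. The 19 and the values given below are from the fit without this block. Arrays did not overlap for 46 lower and 19 higher members, against 8.35% and 10.5% of all probe sets tested. Within replicates 1, 2 and 3 the median difference was -0.41, -0.32 and -0.55.

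AT5G66780 had the largest difference among the lower members, with 604, 530.1 and 260.4 in vte2 against 6463, 8252 and 1898 in vte1 (-3.35 ± 0.86, adjusted p = 0.026). ATOEP16-2 read 472, 576 and 85.8 in vte2 against 4274, 5039.9 and 1185 in vte1 (-3.23 ± 0.73, adjusted p = 0.012). AT3G02480 read 4587, 6302 and 1898 in vte2 against 32000.5, 35297 and 18579 in vte1 (-2.85 ± 0.81, adjusted p = 0.047). For these 3 genes every vte2 array lay below every vte1 array, replicate 3 was the lowest in both mutants, and WT had 1235, 1352 and 212, then 1210, 1181 and 237, then 12561, 12373 and 1397. OCT1 read 547, 404 and 83.2 in vte2 against 1266, 1064 and 2595 in vte1 (-2.39 ± 0.64, adjusted p = 0.034). AT5G14450 read 7293, 6917 and 2987 in vte2 against 12121, 15174 and 19179 in vte1 (-1.51 ± 0.28, adjusted p = 0.0031). In these last 2 genes and in DELTA-VPE (-1.29 ± 0.34, adjusted p = 0.033) replicate 3 was the lowest array of vte2 and the highest of vte1. AT5G02580 at -1.50 ± 0.30, AT1G26740 at -1.04 ± 0.25, AT3G05190 at -0.88 ± 0.22 and AT5G48760 at -0.80 ± 0.23 were the other lower members named by the rule, with adjusted p between 0.0049 and 0.044. AT4G12600, named only because it completes the 11, stood at -0.78. LEA18 did not pass at day 1 (-3.12 ± 0.97, adjusted p = 0.071).

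Of the members higher in vte2 at day 1, AT1G47400 read 3365, 3605 and 431 in vte2 against 184, 102 and 322 in vte1 (3.10 ± 0.82, adjusted p = 0.033). AT4G22490 read 1298, 1321 and 1702 in vte2 against 108, 128 and 392 in vte1 (2.86 ± 0.35, adjusted p = 8.6e-05). AT5G57760 read 1537, 1877 and 1204 in vte2 against 126, 161 and 662 in vte1 (2.54 ± 0.41, adjusted p = 0.00083). In each, all vte2 arrays lay above all vte1 arrays, and replicate 3 was the highest array of vte1. GH3.3, with the signals given above, differed by 2.22 ± 0.48, adjusted p = 0.009. AT3G05600 at 1.41 ± 0.35, AT5G49690 at 1.23 ± 0.34, AT4G29690 at 1.07 ± 0.30 and AT3G43960 at 1.07 ± 0.23 completed the 8, with adjusted p between 0.0087 and 0.045. WT signals of AT4G22490 and AT5G57760 were 1539, 1412 and 1274 and 1800.5, 1642 and 1424, ranges that overlap those of vte2.

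**Figure D3:**
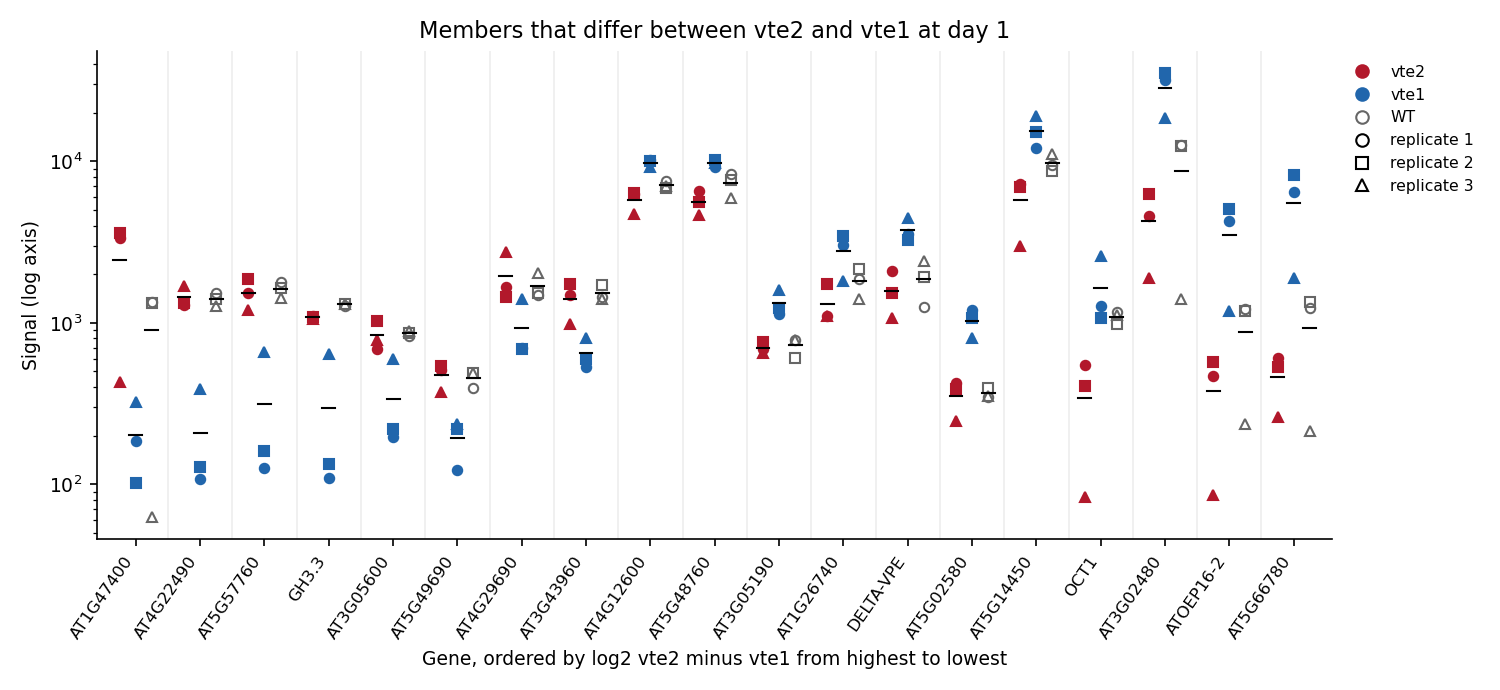
Signals (log axis) at day 1 of the 19 members that differ between vte2 (red) and vte1 (blue), with WT (open grey) beside them. Circles, squares and triangles are replicates 1, 2 and 3, bars are means of 3 arrays, and genes run from the highest to the lowest log2 difference of vte2 minus vte1, from 3.10 for AT1G47400 to -3.35 for AT5G66780.

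Summed signals of root hair, green tissue and dehydration tolerance genes did not overlap between vte2 and vte1 at day 1. Those of endosperm and seed coat genes did. Genes of root hairs (5 measured) summed to 1368 to 11640 in vte2, 171.4 to 769.4 in vte1 and 2020 to 2574 in WT at day 1, and 3 of the 4 tested were higher in vte2 than in vte1, while AT5G66815 was below the 20th percentile of all signals (21.8) in each of these groups. Genes of green tissue (6 measured) summed to 23770 to 28710 in vte2, 9116 to 16290 in vte1 and 19140 to 20170 in WT, with 4 of 6 higher in vte2 than in vte1. Genes of dehydration tolerance (16 measured, 14 tested), to which LEA18 belongs, summed to 17100 to 20710 in vte2, 25220 to 60500 in vte1 and 14900 to 22430 in WT, and 5 of 14 were lower in vte2 than in vte1. Of the dehydration tolerance genes, AT3G22490 was below the 20th percentile in all 3 groups and AT2G42560 in vte2 and WT. Endosperm and seed coat genes (7 measured) summed to 1705 to 2302 in vte2, 1434 to 5665 in vte1 and 1156 to 3971 in WT. AT4G33600 was below the 20th percentile in all 3 groups and AT1G71250 in vte2 and WT. Of 4 endosperm and seed coat genes tested, 1 was higher and 1 lower in vte2. Their part in the result was not tested.

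The day 1 count depended on single arrays. Without vte1 replicate 1, 2 or 3 it was 5, 5 or 52, without vte2 replicate 1, 2 or 3 it was 12, 10 or 7, and with a replicate number left out of all groups it was 2, 0 or 75. With replicate 2 left out, where limma called none, 29 members had an unadjusted p under 0.05.

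At day 3 the mutants differed in 14 members, among them the genes for the defensin LCR67, the organ growth protein ARL, SUFE2 and SPT. In vte2 13 were higher than in vte1 and 1 was lower. Of all probe sets tested 2.53% were higher and 0.986% lower. The median over the members was 0.04, against -0.05 over all probe sets tested. None of the 14 was among the 19 called at day 1. Arrays did not overlap for 29 higher and 12 lower members, against 11.1% and 13.8% of all probe sets tested.

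AT2G47780 read 544, 301 and 1592 in vte2 against 19.5, 62.3 and 179 in vte1 (2.90 ± 0.59, adjusted p = 0.0086). The defensin gene LCR67 had 502, 646 and 1184 in vte2 against 10.4, 98.1 and 319.8 in vte1 (2.77 ± 0.61, adjusted p = 0.014). In both genes replicate 3 was the highest array of each mutant, and the mutants did not overlap. AT1G33790 read 1463, 1143 and 1688 in vte2 against 212, 284 and 282 in vte1 (2.36 ± 0.28, adjusted p = 7.2e-05). ARL, of organ growth, read 922, 1331 and 1034 in vte2 against 169.7, 279.9 and 438 in vte1 (1.89 ± 0.36, adjusted p = 0.0052), and AT1G73120 read 4172, 3732 and 8613 in vte2 against 1030.4, 928 and 2709 in vte1 (1.88 ± 0.37, adjusted p = 0.0058). All vte2 arrays of these genes lay above all vte1 arrays. SUFE2, of iron-sulfur cluster assembly, differed by 1.54 ± 0.23, adjusted p = 0.00057, and AT3G19920, AT3G27400, AT1G72070 and AT4G27450 by 1.85, 1.65, 1.61 and 1.50, with adjusted p between 0.0056 and 0.04. The remaining 3, named because they complete the 13, were AT5G20950 at 1.26, SPT at 1.21 and AT4G01610 at 0.86.

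The single member lower in vte2 at day 3 was AT2G27420, with 117, 9.4 and 204 in vte2 against 689.5, 629.8 and 599 in vte1 (-2.73 ± 0.56, adjusted p = 0.0086). Its vte1 arrays at day 3 overlapped their day 1 signals of 669.6, 909 and 1232, and WT read 81.9, 191 and 337 at day 3. Among the marker lists, the summed signals of root hair and of endosperm and seed coat genes did not overlap between the mutants at day 3, and those of the other lists did. Root hair genes summed to 2157 to 2548 in vte2, 3484 to 3600 in vte1 and 2013 to 4335 in WT, and those of endosperm and seed coat to 2790 to 3328 in vte2, 5038 to 5213 in vte1 and 3290 to 5287 in WT. Green tissue genes summed to 102100 to 132200 in vte2, 125800 to 171800 in vte1 and 179600 to 230500 in WT, and dehydration tolerance genes to 16200 to 23680 in vte2, 16940 to 20530 in vte1 and 13760 to 20540 in WT. AT4G33600 of the endosperm and seed coat list was below the 20th percentile of all signals in all 3 groups. So were AT1G71250 in vte2, AT1G27461 in vte2 and WT, and AT5G22810 in vte1. Of the dehydration tolerance genes, AT5G44310, AT4G21020 and AT2G42560 were below it in vte2. In vte1 AT3G22490, AT2G42560 and M10 were. Between the mutants at day 3 limma called none of the 4 root hair, 4 endosperm and seed coat, 6 green tissue and 14 dehydration tolerance genes tested, with 0, 1, 1 and 2 at an unadjusted p under 0.05, and their part in the result was not tested. The count of 14 went to 9 without vte1 replicate 1 or without vte1 replicate 2 at day 3. With a replicate number left out of all groups it was 0, 1 or 37. With replicate 1 left out, where limma called none, 23 members had an unadjusted p under 0.05.

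**Figure D4:**
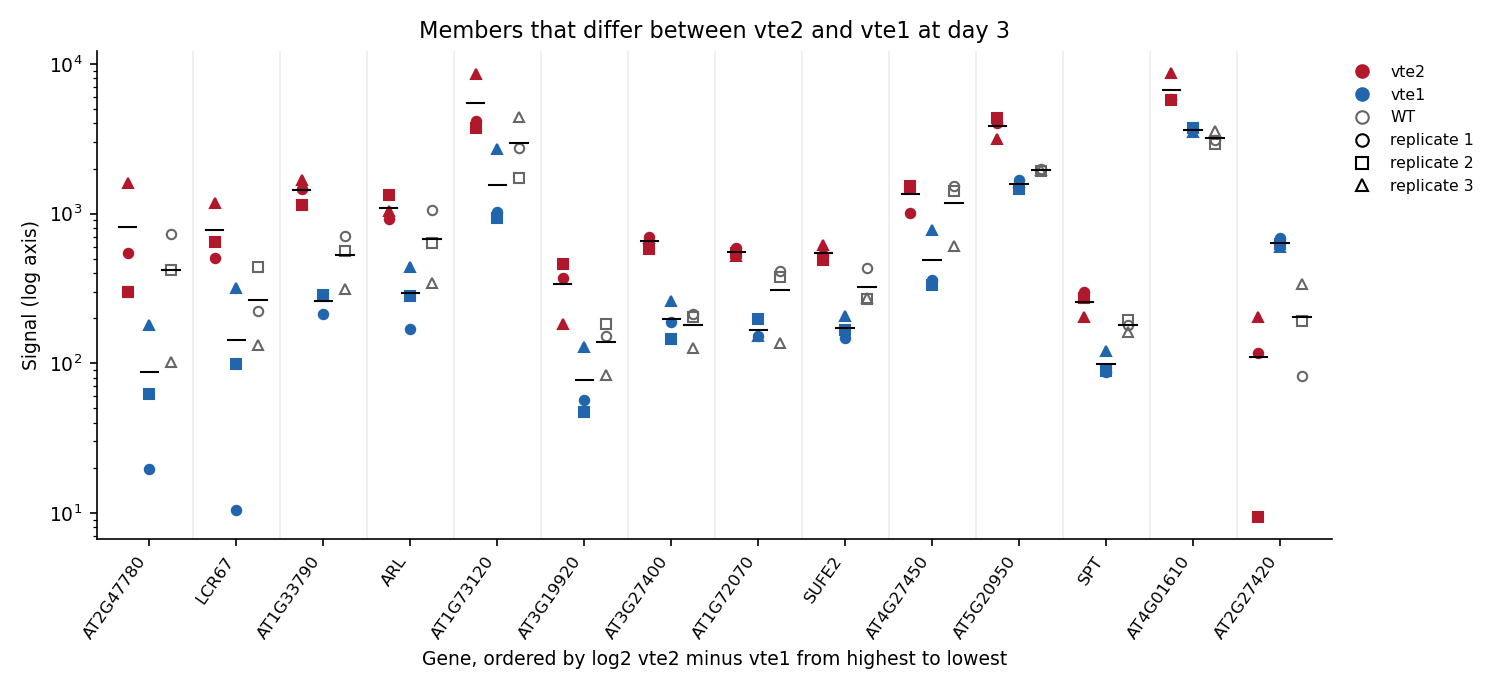
Signals (log axis) at day 3 of the 14 members that differ between vte2 (red) and vte1 (blue), with WT (open grey) beside them. Circles, squares and triangles are replicates 1, 2 and 3 and bars are means of 3 arrays. Genes run from the highest log2 difference of vte2 minus vte1, 2.90 for AT2G47780, to the lowest, -2.73 for AT2G27420.

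The size of the fall itself was compared between the mutants as the change in vte2 minus the change in vte1, where a value above 0 is a smaller fall in vte2. Its median over the members was 0.50, against -0.04 over all probe sets tested, and 158 members were above 0. In 14 members the fall was smaller in vte2 and in 8 it was larger, where 1.45% and 3.84% of all probe sets tested were called in these directions. After median centring, which moved the median of this quantity over all probe sets by 0.14, 17 were smaller and 5 larger in vte2. Genes of the marker lists were called in this contrast too: 3 of 4 root hair genes (median -3.44) and 4 of 6 green tissue genes (median -1.42) were called below 0, as was 1 of 4 endosperm and seed coat genes (median 1.25), and limma called none of 14 dehydration tolerance genes (median 1.46), with 5 at an unadjusted p under 0.05. Their summed signals are those given for each day, and their part in the result was not tested. Of the 22 called, 8 also differed between the mutants at day 1, 7 at day 3 and 7 at neither day.

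Smaller falls in vte2 were largest for AT2G23110, which read 303, 259 and 425 at day 3 and 1413, 1138 and 608 at day 1 in vte2, against 59.8, 119 and 142 at day 3 and 4506, 4798 and 1180.4 at day 1 in vte1. The 2 changes, -1.56 and -4.59, differed by 3.03 ± 0.66, adjusted p = 0.011. Its vte1 arrays lay below those of vte2 at day 3 without overlap, and above them at day 1 except for vte1 replicate 3. AT3G19920 read 369, 458 and 183 at day 3 and 1399, 994 and 1334 at day 1 in vte2, against 56.9, 47.5 and 128 at day 3 and 3042, 3097 and 1480.2 at day 1 in vte1 (2.80 ± 0.53, adjusted p = 0.0047). AT2G21640 read 568, 415 and 627 at day 3 and 732, 904 and 809.7 at day 1 in vte2, against 236, 274 and 46.3 at day 3 and 2191, 2221 and 793 at day 1 in vte1 (2.60 ± 0.69, adjusted p = 0.033). In AT2G21640 vte1 replicate 3 stood below replicates 1 and 2 at both days. AT5G20950 had the smallest p of the 22, at 1.73 ± 0.23, adjusted p = 0.00044, with 4022, 4354 and 3161 at day 3 and 9192, 10144 and 9222 at day 1 in vte2 and 1669, 1451 and 1615 at day 3 and 12212, 13027 and 14208 at day 1 in vte1. Its replicates were close together in all 4 groups. DELTA-OAT, of arginine breakdown, was also among the 14 (1.42 ± 0.35, adjusted p = 0.021).

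Larger falls in vte2 included 3 members with a symbol: GH3.3 (-2.78 ± 0.68, adjusted p = 0.022), CHIL (-2.09 ± 0.58, adjusted p = 0.042) and WAG2 (-1.85 ± 0.52, adjusted p = 0.045). AT4G22490 read 175, 113 and 144 at day 3 and 1298, 1321 and 1702 at day 1 in vte2, against 114, 151 and 137 at day 3 and 108, 128 and 392 at day 1 in vte1 (-2.78 ± 0.50, adjusted p = 0.0034). AT1G06000 read 592, 408 and 689.8 at day 3 and 5205, 5662 and 3315 at day 1 in vte2, against 1361, 1452 and 638 at day 3 and 2671, 2242 and 2162 at day 1 in vte1 (-1.91 ± 0.48, adjusted p = 0.026). In AT4G22490 vte1 was low at both days, and in AT1G06000 it was below vte2 at day 1 with no overlap. The count of 22 was 14, 10 or 37 without vte1 replicate 1, 2 or 3 at day 1 and 12 without vte1 replicate 1 at day 3. With a replicate number left out of all groups it was 0, 0 or 67, and with replicate 1 or replicate 2 left out 34 members had an unadjusted limma p under 0.05.

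**Figure D5:**
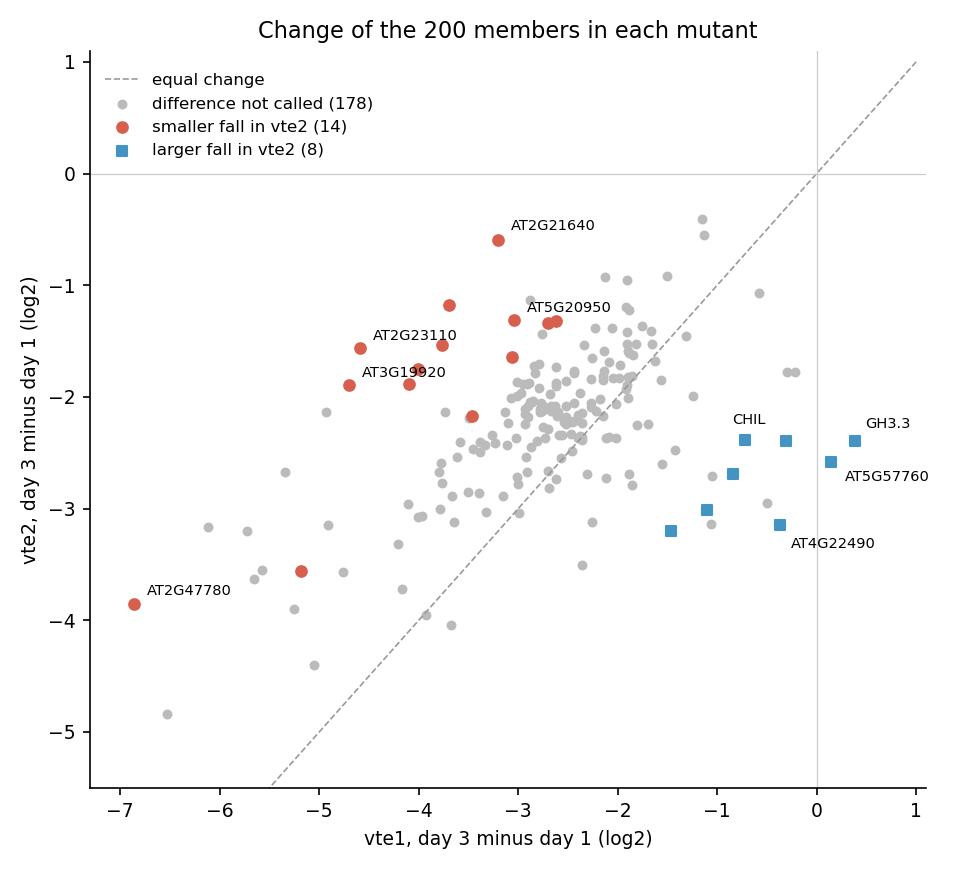
Day 3 minus day 1 in vte2 (vertical) against vte1 (horizontal), as differences of log2(signal + 22), 1 point per member. Red circles are the 14 members with a smaller fall in vte2, blue squares the 8 with a larger fall, grey points the 178 whose difference was not called, and the dashed line marks equal change. Most points lie above the line, and GH3.3, AT5G57760, AT4G22490 and CHIL lie near a vte1 change of 0.

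Set beside WT, the mutants are described without a test, because the choice took members that were high in these WT arrays at day 1 and low at day 3, which pulls a mutant's difference from WT down at day 1 and up at day 3. At day 1 the median difference from WT was -0.23 in vte2 and 0.20 in vte1. Arrays did not overlap with WT for 4 higher and 29 lower members in vte2, against 4.95% and 4.27% of all probe sets tested. In vte1 they did not overlap for 34 higher and 20 lower members, against 6.47% and 8.79%. Among members that did not overlap, LEA18 stood highest over WT in vte1 at day 1, at 2.95, followed by AT5G66780 at 2.66, AT3G02480 at 2.19, AT2G21640 at 1.83 and AT5G02580 at 1.42. Lowest against WT were AT4G22490 at -2.83, AT5G57760 at -2.63, GH3.3 at -2.47, AT3G05600 at -1.47 and WAG2 at -1.24. These values rest in part on replicate 3. In an alternative chosen after seeing the data, leaving out WT replicate 3 at day 1 brought LEA18 to 1.49, AT5G66780 to 1.83 and AT3G02480 to 1.14, with AT2G21640 at 1.75, and LEA18 was then no longer the highest. Leaving out vte1 replicate 3 brought AT5G66780 to 3.31, AT5G57760 to -3.32 and GH3.3 to -3.21. In vte2 at day 1 the lowest of those that did not overlap was OCT1 at -1.91 (-1.17 without vte2 replicate 3), and the highest was AT2G21640 at 0.90.

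At day 3 the median difference from WT was 0.19 in vte2 and 0.15 in vte1. Arrays did not overlap with WT for 29 higher and 4 lower members in vte2, against 10.3% and 9.48% of all probe sets tested, and for 18 higher and 8 lower in vte1, against 9.57% and 7.35%. AT2G21640 read 568, 415 and 627 in vte2 against 161, 59 and 35.2 in WT (2.54). AT1G47400 read 541, 674 and 330.5 in vte2 against 64.4, 64.5 and 83.2 in WT (2.49). AT3G27400, LCR67 and AT1G33790 were higher than in WT by 1.76, 1.53 and 1.45 in vte2. All vte2 arrays of these genes lay above all WT arrays. AT1G33790 stood on the other side of WT in vte1, at -0.91, as did SUFE2 at -0.81 and SPT at -0.74. In vte1 the highest that did not overlap were AT2G27420 at 1.73, AT3G57010 at 1.46, AT3G45320 at 1.36, AT1G06000 at 1.32 and AT3G22550 at 1.26.

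The members were also counted in lists of genes that belong to the processes of this stage, beside 18.5% lower and 21.7% higher among all probe sets tested in vte2 and 23.4% lower and 30% higher in vte1. Of 14 dehydration tolerance genes tested, which include LEA18, 5 fell and 1 rose between day 1 and day 3 in vte2 (median -1.50), and 12 fell and 2 rose in vte1 (median -2.66). Of 72 genes of protein breakdown, which include CP1 and scpl29, 16 fell and 13 rose in vte2 (median -0.03), and 20 fell and 19 rose in vte1 (median 0.11). Of 31 cell wall genes, which include EXPA9 and EXPA20, 3 fell and 10 rose in vte2 (median 0.08), and 4 fell and 16 rose in vte1 (median 1.13). In the list filled for antioxidant and detoxification enzymes (53 tested), 8 fell and 17 rose in vte2 (median 0.32). In vte1 14 fell and 20 rose (median 0.44). Its only member, AT2G21640, has a locus name alone, and whether it is such an enzyme was not examined. The list of 13 transporters tested held OCT1 and not SAG29, and of these 13, 1 fell and 2 rose in vte2 and 4 fell and 3 rose in vte1. None of the 7 ribosome biogenesis and translation genes tested was a member, yet 3 of them fell in vte2 and 4 in vte1, and none rose. None of the 5 loci chosen for this list was measured by a probe set of 1 gene, so symbols and synonyms alone filled it. The same held for transcription factors (0 of 5 loci) and abscisic acid signalling (0 of 19). Of the chosen loci, 1 of 7 was measured for green tissue, 3 of 19 for fatty acid use and 3 of 15 for storage reserves. For root hair 5 of 7 were measured, and for dehydration tolerance 13 of 21. The rule left out RPL and RPS genes by symbol and did not reach genes under a locus name alone. Whether members under a locus name belong to this class was not examined. Lists were filled by symbol, synonym and chosen loci, so they miss members whose role belongs to them. Examples are SAG29 among transporters, DELTA-VPE in protein breakdown, SPT among transcription factors, and AAE16 and SDP1-LIKE in fatty acid use. The 173 members with a locus name alone could enter a list only by a synonym or a chosen locus. A list without members therefore does not show that the set lacks the role. As filled, the other lists held no member: heat shock proteins (7 tested), transcription factors (17), storage reserves and oil bodies (2), fatty acid use (3), oxygen shortage (3), gibberellin (3), abscisic acid signalling (2) and the marker lists of root hair (4), green tissue (6) and endosperm (4). Some genes of the lists could not be members, because the rule leaves them out. They include ICL in fatty acid use, scpl20, scpl35 and scpl44 in protein breakdown, GSTU25 among detoxification enzymes and UGT80B1 among endosperm genes.

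Beyond their signals, the members were compared in chromosome position and type of probe set alone. In the TAIR10.1 annotation 4 pairs were direct neighbours on a chromosome: AT3G27220 and AT3G27230, AT3G45310 and AT3G45320, AT3G58060 and GIS, and AT4G30800 and scpl29. All 200 probe sets were of the type that is designed for a single transcript, and all passed the filter on dim probe sets. At day 1 the mean signal of a member ranged from 94.5 to 19948 in vte2, from 111.4 to 28625 in vte1 and from 144.6 to 22447 in WT.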

How the data were processed

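Whole seedlings of vte2, vte1 and WT were compared at day 3 and day 1 on 18 arrays. The deposited values are signal intensities, 1 per probe set and array, which the authors made with the program MAS5, per the processing notes they submitted. The sources used here do not give its version or scaling target. The mean of the deposited intensities without the highest and lowest 2% was nearly equal on all arrays. Groups and replicate numbers are those of the labels, which call the replicates biological without saying how they were separated, so p-values measure the spread between these samples. Signal depth over background is not part of the deposited values used, so no probe set was called absent.

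The values were used as log2(signal + 22), where 22 is close to the 20th percentile of all signals (21.8). Probe sets with a mean above the 30th percentile of the 22746 that are not controls, 15922 in all, were fitted in limma 3.58.1 (R 4.3.3) with a mean per group and a mean-variance trend, and p-values were adjusted by Benjamini-Hochberg within each of 5 contrasts that use mutant arrays alone. Contrasts with WT arrays, which chose the members, have no test. Between groups of 3 arrays an exact permutation test cannot go below p = 0.1, and none is given. On data simulated for vte2 against vte1 at day 1, with 200 of 15922 probe sets changed, 83% of 4-fold and 27.2% of 2-fold changes were recovered, with 6.32% false calls. The simulated noise was independent between probe sets and arrays and had no deviation shared by replicate number. These shares may therefore not hold for the measured arrays. Same-numbered arrays of vte2 and vte1 deviated together at day 1 (r = 0.256, 0.344 and 0.515 for numbers 1, 2 and 3, from the titles) and were taken as paired there by a limit of 0.1 on each r, although arrays of different numbers reached 0.319. At day 3 (0.056, 0.033 and 0.127) they were not.

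Genes come from the platform annotation, with 13513 probe sets of 1 gene, 503 of several and 8730 of none, and 13436 of the first matched RefSeq TAIR10.1. Lists were matched by locus, symbol or synonym, leaving out matches inside clone names. The members, the lists and the tests were chosen with earlier results of these data known. Apart from the 27 members with a symbol, named genes are the 20 deepest drops in WT and 5 on each side of the edge of the set. They are also the 5 deepest and 5 smallest changes in each mutant and, for each mutant comparison and direction, up to 10 called members (without overlap between the arrays, except for the difference of changes). The 5 highest and 5 lowest against WT without overlap and up to 4 of any list with 2 or more members complete the rule. Python 3.11.15, pandas 2.3.3, numpy 2.4.6 and matplotlib 3.10.9 were used. Promoter and protein sequences were not used here.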

Additional observations from a re-analysis of the deposited data

Results flagged for a closer look

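For 22 members the change between day 3 and day 1 differed between the mutants by a test of that difference (limma, adjusted p under 0.05), and each is given as the change in vte2 minus the change in vte1 on the log2 scale. What lies behind these differences was not tested. The fall was smaller in vte2 for AT2G23110 by 3.03, AT2G47780 by 3.01, AT3G19920 by 2.80, AT2G21640 by 2.60 and AT5G02580 by 2.52. It was also smaller for AT1G73120 by 2.26, AT1G33790 by 2.24, AT4G27450 by 2.21, AT5G20950 by 1.73 and AT5G14450 by 1.63, and for DELTA-OAT by 1.42, AT3G03170 by 1.36, AT4G01610 by 1.30 and AT1G26740 by 1.29. The fall was larger in vte2 for AT4G22490 (-2.78), GH3.3 (-2.78), AT5G57760 (-2.73), CHIL (-2.09), AT1G06000 (-1.91), WAG2 (-1.85), AT4G29690 (-1.74) and AT3G43960 (-1.66). Alternatives were run for the 18 that the naming rule takes, which leaves out the last 4 with a smaller fall. Each of the 18 lost its call in at least 2 of 24 alternative settings and none changed direction. AT4G22490, AT5G57760, AT3G43960, AT5G20950, AT1G33790, AT5G02580, AT3G19920 and AT2G23110 kept it in 22 of the 24, and WAG2, AT2G47780 and CHIL in 9, 11 and 12.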

How the results depend on the processing

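The falls in the mutants depended little on the processing: with single arrays or replicate numbers left out, 165 to 196 members were called in vte2 and 179 to 190 in vte1, and of the 5 deepest named falls in each all 5 kept their call in all 19 settings. Median centring of each array moved the median of all probe sets by -0.39 in vte1, with the member median at -3.01, and by -0.25 in vte2. Quantile normalization moved the median of all probe sets by -0.24 in vte1 and -0.16 in vte2, where the members then stood at -2.58 and -2.15 relative to it, against -2.76 and -2.22 without it, and median centring moved it by -0.11 for vte2 minus vte1 at day 1. The counts between the mutants moved far more. At day 1 the count of 19 became 3 (2 lower and 1 higher) when fitted on the 6 arrays compared alone and 39 with the replicate block, and 0 to 75 with arrays or numbers left out. At day 3 the count of 14 became 0 to 37, and the difference of changes, with 22, became 0 to 67. In each of these the highest count came without replicate 3 and the lowest without replicate 1 or 2. Every call named for vte2 against vte1 at day 1 (18 members) and at day 3 (11) was lost in at least 1 setting, kept in 7 to 18 of 19 settings at day 1 and 10 to 18 at day 3. The check did not bear out the replicate block between vte2 and vte1 at day 3 or between days. For vte2 and WT at day 3 it did (r = 0.15, 0.221 and 0.37). With the block, 17 members were called at day 3, 31 for the difference of changes, 195 in vte2 and 189 in vte1. The block changed no named call. With arrays or numbers left out, the vte1 change of 5 members that did not pass turned sign: CHIL ranged from -0.67 to 0.14, AT1G47400 from -0.70 to 0.23, AT3G57010 from -0.56 to 0.024, AT5G57760 from -0.30 to 0.88 and GH3.3 from -0.22 to 1.12, the last 2 with calls as higher at day 3 at their upper ends. It also turned for AT5G57760 after quantile normalization (-0.17) and median centring (-0.25) and for GH3.3 after median centring (-0.0105). The causes were not tested. A constant of 10 or 50 in place of 22 kept 172 members, quantile normalization 179 and median centring all 200. Fits that leave 2 arrays in a group share their spread with the other groups. For the difference of changes the fit on its own arrays is the one on the 12 mutant arrays, which called 19. The planned search of promoters for motifs was not run, since no promoter sequence was used here.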
